A study of Rattus norvegicus with 24 samples.

Results

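The aldo-keto reductases, the enzymes whose gene symbols start with Akr and a digit, were followed in rat cumulus-oocyte complexes on 24 Illumina bead arrays. A cumulus-oocyte complex is the egg with the layer of granulosa-derived cells around it. Members were chosen by symbol alone: 18 of the 22226 probes in the value table carried such a symbol, and they covered 17 genes. Of these, 11 probes, each for its own gene, had a detection p under 0.01 on at least 6 arrays and were tested, among 8082 such probes in all.

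Each array held the complexes of 1 sexually mature female Sprague Dawley rat, with 6 rats in each of 4 groups. The first group is labelled as control, with no hormone named. The second group received GnRH (gonadotropin-releasing hormone), the third GnRH and eCG (equine chorionic gonadotropin, which drives follicle growth), and the fourth GnRH, eCG and hCG (human chorionic gonadotropin, which triggers ovulation). Doses, times and ages in days were not given in the sources used here, and a rat's array holds whole complexes, not separated oocytes and cumulus cells. The RNA was amplified before labelling. The comparisons ask which step of the hormone sequence goes with a change in these transcripts.

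Aldo-keto reductases use NADPH to turn an aldehyde or ketone group into an alcohol. The Akr1c enzymes act mainly on steroids, the Akr1b enzymes on sugars, lipid aldehydes and in part prostaglandins, Akr1d1 on the double bond of the steroid ring, and Akr1a1 and Akr7a enzymes on small aldehydes. In the rat ovary the best known member is 20-alpha-hydroxysteroid dehydrogenase, which converts progesterone to a form that its receptor hardly binds. RefSeq lists that gene as Akr1c3, with Akr1c18 as an older symbol.

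Between 25.3% and 37.9% of probes were detected on each array, and the median signal ran from 140.5 to 235.4. Of the listed cumulus and granulosa markers with a probe, Inha, Inhba, Fshr, Amhr2, Fst, Nr5a2, Hsd17b1 and Cyp19a1 were detected on all 24 arrays. Amh was detected on 22, Inhbb on 21, Has2 on 6 and Kitlg on 0. Of the oocyte markers with a probe, Gdf9, Bmp15, Zp3, Dppa3 and H1f8 were detected on all 24 arrays. Zp1 and Bcl2l10 were detected on 21, Nlrp5 on 12 and Mos on 0. GnRH rats 5 and 16 stood apart: on the first principal component of all tested probes they lay at 19.7 and 19.0. The other GnRH rats lay between -28.3 and -18.2 and the hCG group between 41.02 and 49.81. The GnRH+eCG group ran from -23.0 to 4.08, with rats 20 and 21 at its top, at -3.76 and 4.08. In GnRH rats 5 and 16 the summed theca and stroma markers (6 of 10 genes tested) reached 12.75 and 12.36 on the log2 scale. Control rats had 9.16 to 10.50, GnRH+eCG rats 11.08 to 12.01 and hCG rats 11.23 to 12.40. A sum adds the genes' levels before the log2 is taken, so the brightest genes of a list set most of it. Of the luteal list, Hsd3b1 and Cyp11a1 averaged 13.42 and 13.38 in GnRH+eCG rats, and Star 9.45. In rats 5 and 16 the luteal sums were 15.12 and 15.18 (9 of 12 genes tested). Control rats had 13.45 to 14.76, GnRH+eCG rats 13.99 to 15.17 and hCG rats 14.88 to 15.25. The cumulus and granulosa sums of rats 5 and 16 were 13.98 and 13.91 (11 of 16 genes tested). Control rats had 14.48 to 15.20, GnRH+eCG rats 14.57 to 15.11 and hCG rats 14.02 to 14.68. In these bulk samples, fewer cells of a type and less RNA per cell cannot be told apart.

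According to the RefSeq gene table (assembly GRCr8, used here for names and gene order only), the members lie in a few runs of neighbours. Along chromosome 17 the order is Akr1e2, Akr1c2, Akr1c1, AKR1C3l1, Akr1c12l1, Akr1c13, Akr1c19, Akr1c12, Akr1c3, Akr1c14 and Akr1c15, and 9 of these 11 genes have a named probe. On chromosome 4, Akr1b1, Akr1b8, Akr1b10 and Akr1b7 follow each other, with Akr1d1 farther along. On chromosome 5, Akr7a2 and Akr7a3 are neighbours and Akr1a1 lies apart from them. Bead probes of close copies can capture each other's transcripts. Probe sequences were not used here, so this was not tested.

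The promoters of the 3 genes with the highest rise after hCG are shown, since these transcripts rose at the same step. They come from RefSeq promoter windows of 300 bases, running from 250 bases before the gene's start to 50 bases after it, written 5′ to 3′ on the gene's strand in GRCr8. Capitals mark the motif matches described after them. The windows lie at chr17:70717831-70718130 on the minus strand for Akr1c2, at chr4:63964171-63964470 on the plus strand for Akr1b8 and at chr17:71020634-71020933 on the plus strand for Akr1c3.
Akr1c2: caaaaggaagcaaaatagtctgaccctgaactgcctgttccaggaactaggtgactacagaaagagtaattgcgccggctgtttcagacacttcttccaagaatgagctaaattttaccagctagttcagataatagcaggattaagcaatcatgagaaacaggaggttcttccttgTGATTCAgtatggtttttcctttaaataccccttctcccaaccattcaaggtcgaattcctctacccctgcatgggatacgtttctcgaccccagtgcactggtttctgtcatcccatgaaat
Akr1b8: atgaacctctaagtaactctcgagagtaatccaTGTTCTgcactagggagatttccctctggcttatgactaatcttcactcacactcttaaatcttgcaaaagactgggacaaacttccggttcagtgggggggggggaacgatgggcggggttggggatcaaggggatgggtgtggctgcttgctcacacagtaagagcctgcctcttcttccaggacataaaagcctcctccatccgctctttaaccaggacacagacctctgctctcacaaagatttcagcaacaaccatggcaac
Akr1c3: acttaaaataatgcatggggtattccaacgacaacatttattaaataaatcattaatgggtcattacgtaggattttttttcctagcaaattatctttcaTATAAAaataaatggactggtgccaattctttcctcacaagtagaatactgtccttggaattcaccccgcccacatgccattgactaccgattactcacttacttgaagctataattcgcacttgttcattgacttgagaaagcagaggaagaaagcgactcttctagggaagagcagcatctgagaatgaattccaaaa

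A window was available for 15 of the 17 genes, and 7 motifs were searched on both strands; the motifs were chosen with the expression results known. The AP-1 letters TGANTCA occurred in 1 of the 15 windows, that of Akr1c2, where the match TGATTCA begins 73 bases before the start; 7.33% of all 33469 windows hold them. The letters TGTTCT, the core bound by progesterone, androgen and glucocorticoid receptors, occurred in the windows of Akr1b8, Akr1b7 and Akr7a3, and in 20.7% of all windows. In Akr1b8 the match begins 217 bases before the start. The TATA letters TATAAA occurred in the windows of Akr1c3, where they begin 150 bases before the start, and Akr1c19, and in 14.2% of all windows. The SF-1 letters AAGGTCA were found in Akr1b10 and Akr1b7 (4.61% of all windows), and the antioxidant response core TGACNNNGC in Akr1c15 (12.1%). The cAMP response letters TGACGTCA (1.83%) and the Runx letters TGTGGT (17.3%) were in none of the 15. These are matches of letters and not measured binding sites, and TGACGTCA, TGANTCA and TGACNNNGC can overlap one another.

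Of the 3 single hormone steps, the addition of hCG was the one at which members passed the test. Against GnRH+eCG, 4 of the 11 tested members rose (Akr1c2, Akr1b8, Akr1c3, Akr1c14), 1 fell (Akr7a2) and 6 did not pass the test, by limma's moderated test with Benjamini-Hochberg adjustment over all tested probes and a threshold of 0.05. Of all 8082 tested probes, 39.8% passed in the same comparison, 17.8% as higher and 22% as lower. The members' count of 5 of 11 thus sits near the background. The median log2 difference was 0.07 over the 11 members and -0.04 over all tested probes. In 3 of the 11 members every hCG rat lay above every GnRH+eCG rat, against 21.1% of all tested probes whose groups did not overlap and 9.91% that did so upwards.

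The older symbol of Akr1c2 in RefSeq is Akr1c21. The mouse counterpart of that name oxidises and reduces steroids at their 3-alpha and 17-alpha positions. Akr1c2 itself was not detected in most rats before hCG and was bright after it. Its scanner signal ran from 129.5 to 197.8 in control rats (median 170), from 139.2 to 422.7 in GnRH rats (median 187.85), from 144.3 to 192.9 in GnRH+eCG rats (median 179.45) and from 2192.4 to 2667.8 in hCG rats (median 2318.45). It was detected on all 6 hCG arrays, on 1 GnRH array (rat 5) and on no control or GnRH+eCG array. The hCG rats formed a tight group far above all others. On the log2 scale after normalisation, the mean was 11.15 ± 0.10 (SD, n = 6) after hCG and 6.44 ± 0.17 in GnRH+eCG rats, a difference of 4.72 ± 0.18 (SE; adjusted p = 2.52e-15). The 6 hCG arrays alone carried the probe past the detection filter, so this p does not stand apart from the choice of probes; with no detection filter, over all 22226 probes, the difference was the same and the adjusted p was 9.94e-14. Since the probe was not detected in the lower group, the change is set against a detection floor, which gave 24.6-fold. Against control, where the mean was 6.38 ± 0.14, the same measure gave 25.5-fold. Per array, the floor is the higher of the lowest signal among detected probes and the probe's own. Those detected probes include some matched to their scores by signals instead of ID, and their scores can be higher at the same signal. In control rat 1, Akr1c12l1 counted as detected at 6.45, and Akr1c15, matched by ID, was not detected at 6.65. The floor can thus be too low, and these folds are not strict lower bounds. Against GnRH alone, where the probe was detected on 1 of 6 arrays, the difference was 4.41 ± 0.18 (adjusted p = 7.96e-15). Its size rests on 5 values from arrays where the probe was not detected. The log2 difference from GnRH+eCG was 3.77 on the deposited signals with no normalisation, 3.85 by quantile normalisation with no background correction and 3.90 by median scaling, so its size depends on the background correction. It was 4.78 within rats 1 to 12 and 4.66 within rats 13 to 24.

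Akr1b8, known in the mouse as a reductase of lipid-derived aldehydes that growth factor induces in fibroblasts, was present in every rat and rose after hCG. Its signal ran from 428.0 to 537.1 in control rats (median 513.1), from 440.8 to 592.6 in GnRH rats (median 549.05), from 476.9 to 750.1 in GnRH+eCG rats (median 643.25) and from 2361.1 to 4435.5 in hCG rats (median 3493.1). The lowest hCG rat was above the highest rat of any other group. Normalised log2 means were 8.29 ± 0.60 in control, 8.48 ± 0.26 in GnRH, 8.84 ± 0.54 in GnRH+eCG and 11.66 ± 0.31 in hCG rats. The hCG group was 2.82 ± 0.25 (SE) above GnRH+eCG, a 7.07-fold change (adjusted p = 8.89e-09), and 3.37 ± 0.25 above control, a 10.4-fold change (adjusted p = 3.75e-10). The first 3 group means overlapped in their rats and none of the differences among them passed the test (adjusted p = 0.759, 0.992 and 0.283). Its chromosome 4 neighbour Akr1b1 differed by 0.05 ± 0.15 at the same step, and neither Akr1b10 nor Akr1b7 was detected on any array.

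Akr1c3, the rat 20-alpha-hydroxysteroid dehydrogenase, rose after hCG but varied widely before it. The control signals ran from 155.0 to 741.5 (median 457.1) with detection in 4 of 6 rats, and the GnRH signals from 402.2 to 5704.1 (median 1857.0). The GnRH+eCG signals ran from 438.7 to 1986.6 (median 628.25), and the hCG signals from 1678.9 to 3293.2 (median 2247.45). The hCG rats all lay above the control rats, overlapped GnRH+eCG rat 21 at the top of its group and lay within the range of the GnRH rats. Mean log2 levels were 7.97 ± 1.09 in control, 10.30 ± 1.47 in GnRH, 9.10 ± 0.91 in GnRH+eCG and 11.15 ± 0.39 in hCG rats. The hCG step was 2.05 ± 0.56 (SE; 4.15-fold, adjusted p = 0.00543) and the difference from control 3.18 ± 0.56 (9.04-fold, adjusted p = 6.38e-05). Within rats 1 to 12 the hCG step was 2.39 (adjusted p = 0.0601), and within rats 13 to 24 it was 1.72 (adjusted p = 0.0987), with 3 rats a group in each.

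The GnRH group had the widest spread of Akr1c3, with an SD of 1.47 beside 1.09 in control and 0.91 in GnRH+eCG. Rat 5 had the highest level of all 24 arrays, 12.37 on the log2 scale, rats 4, 16 and 18 lay at 10.70, 10.79 and 10.67, and rats 6 and 17 at 9.07 and 8.17. On the first principal component rats 5 and 16 stood apart, and rats 4, 6, 17 and 18 did not. GnRH exceeded control by 2.32 ± 0.56 (95% interval 1.17 to 3.47), which had an unadjusted p of 0.00035 and an adjusted p of 0.377. Without rats 5 and 16 this difference was 1.68 (adjusted p = 0.999). The difference of hCG from GnRH, 0.85 ± 0.56 with an adjusted p of 0.23, became 1.496 with an adjusted p of 0.0303 without them. These rats were picked from the same data, on a component where they lay nearest the hCG group among GnRH rats. Leaving them out can widen this difference through that choice, so the second p is not an independent test. Rat 5 was also the highest GnRH rat in summed theca and stroma markers (12.75; group range 9.20 to 12.75) and leukocyte markers (11.08; group range 8.51 to 11.08, 3 of 12 genes tested). Of the theca and stroma list, Pdgfra, Tagln and Insl3 were detected on no array, and of the leukocyte list Ptprc, Itgam, Cd3e, Cd79b and Laptm5. The summed luteal markers of rat 5, at 15.12, lay near the top of the GnRH range of 14.40 to 15.18. Its cumulus and granulosa markers, at 13.98, lay near the bottom of the GnRH range of 13.91 to 15.22. The part of other cell types or of luteal genes in the spread of Akr1c3 was not tested.

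**Figure D1:**
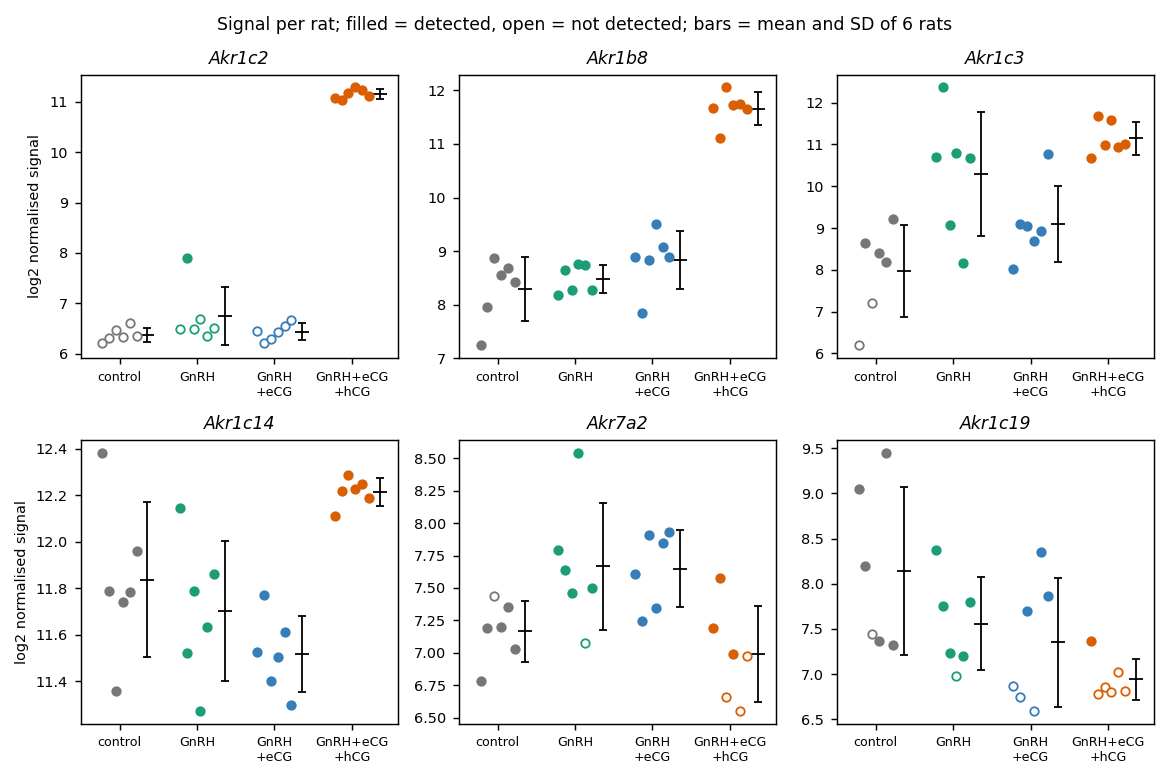
Log2 normalised signal (y axis) of the 6 members that passed the test at the hCG step or against control, other than Akr1a1, by hormone group (x axis); each point is 1 rat, and the black bars are the mean and SD of 6 rats. The hCG points of Akr1c2 and Akr1b8 lie above all others, and the GnRH points of Akr1c3 spread from 8.17 to 12.37.

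Akr1c14, the rat 3-alpha-hydroxysteroid dehydrogenase (older symbol Akr1c9), was bright in every rat. Its signals ran from 2194.2 to 6764.5 in control (median 3840.0), from 2705.5 to 4652.2 in GnRH (median 3285.55), from 2491.9 to 3963.4 in GnRH+eCG (median 2833.9) and from 4307.7 to 5233.9 in hCG rats (median 4973.0). After hCG the rats drew together, with a mean of 12.21 ± 0.06 against 11.52 ± 0.16 in GnRH+eCG, and the groups did not overlap. The difference was 0.70 ± 0.14 (SE; 1.62-fold, adjusted p = 0.000452); within rats 1 to 12 it was 0.64 (adjusted p = 0.106). Against GnRH it was 0.51 ± 0.14 (adjusted p = 0.00601), which was 0.46 (adjusted p = 0.0553) on the deposited signals with no normalisation and 0.39 (adjusted p = 0.347) within rats 1 to 12. Against control, at 11.84 ± 0.33, it was 0.38 ± 0.14 (adjusted p = 0.0271), and control rat 1, at 12.38 on the log2 scale, lay above the hCG rats. That call was lost without control rat 3 (0.28, adjusted p = 0.083) or control rat 13 (0.36, adjusted p = 0.0505), with no normalisation (0.33, adjusted p = 0.134), within rats 1 to 12 (0.36, adjusted p = 0.31) and within rats 13 to 24 (0.39, adjusted p = 0.0704).

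Akr7a2, a reductase of small aldehydes such as succinic semialdehyde, was the member that fell at the hCG step. Its signals were low throughout, from 243.9 to 503.2 in GnRH (median 374.25), from 258.0 to 389.8 in GnRH+eCG (median 369.5), from 154.1 to 330.0 in hCG (median 213.3) and from 256.1 to 338.2 in control rats (median 294.45), and it was detected in 3 of 6 hCG rats. The hCG and GnRH+eCG rats overlapped. The level went from 7.65 ± 0.30 to 6.99 ± 0.37, a difference of -0.66 ± 0.20 (SE; adjusted p = 0.0118), and from GnRH at 7.67 ± 0.49 the difference was -0.68 ± 0.20 (adjusted p = 0.01). Against control it was -0.17 ± 0.20 (adjusted p = 0.485), and under at least 1 alternative processing or set of rats this passed (lowest adjusted p = 0.0462). The call at the hCG step was lost within rats 1 to 12 (-0.45, adjusted p = 0.269) and within rats 13 to 24 (-0.87, adjusted p = 0.0734). The call against GnRH was also lost under at least 1 alternative (highest adjusted p = 0.264). Rat 16 had the highest level, 8.54. At the hCG step all 8 tested oocyte markers (16 listed) fell, their summed level running from 11.91 to 13.78 in GnRH+eCG and from 10.95 to 11.64 in hCG rats. Of 11 tested cumulus and granulosa markers (16 listed) 6 fell and 1 rose, with sums from 14.57 to 15.11 and from 14.02 to 14.68. Mos of the first list and Kitlg of the second were detected on no array, and the part of these cells in the fall of Akr7a2 was not tested.

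**Figure D2:**
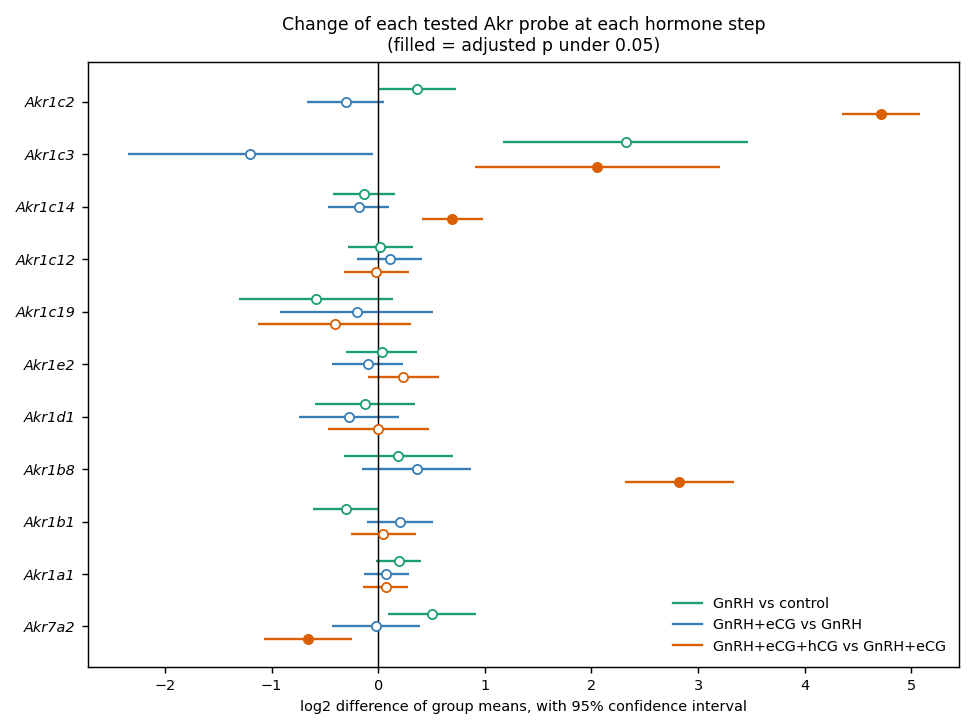
Log2 difference of group means with its 95% confidence interval (x axis) for each of the 11 tested members (y axis) at the 3 successive hormone steps, drawn in 3 colours; filled points have an adjusted p under 0.05. The 5 filled points all belong to the hCG step, from 4.72 for Akr1c2 to -0.66 for Akr7a2, and the GnRH interval of Akr1c3 runs from 1.17 to 3.47.

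Neither earlier step had a member past the test. For GnRH against control the count was 0 of 11 by limma (background 0% of 8082 probes), with 3 of 11 members at an unadjusted p under 0.05, and 961 of all probes (11.9%). For GnRH+eCG against GnRH it was 0 of 11 (background 0%), with 1 of 11 members and 431 of all probes (5.33%) at that level. For GnRH+eCG against control it was 0 of 11 (background 0.421%), with 5 of 11 members and 1242 of all probes (15.4%) at that level. Beside Akr1c3, the members under an unadjusted p of 0.05 at the GnRH step were Akr7a2 and Akr1c2. Their differences were 0.50 ± 0.20 and 0.36 ± 0.18, and Akr1c2 was not detected in 5 of 6 GnRH rats.

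Against control, the full hormone sequence went with 5 members higher (Akr1c2, Akr1b8, Akr1c3, Akr1c14, Akr1a1), 1 lower (Akr1c19) and 5 not past the test, where 51.9% of all probes passed, 24.4% as higher and 27.5% as lower. On the deposited signals with no normalisation this split was 3 higher and 3 lower, and of all calls 19.7% were higher instead of 47%. Every hCG rat lay above every control rat in 4 of the 11 members, against 26.1% of all probes whose groups did not overlap and 13.4% that did so upwards. Against GnRH, 3 members were higher, 1 was lower and 7 did not pass, where 38% of all probes passed. With no normalisation the split of members was 2 and 2, and of all calls 19.9% were higher instead of 46%. These comparisons share their hCG arrays.

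Markers of other cells moved in the same comparison with control. Of 6 tested theca and stroma genes (10 listed), 4 rose (Col1a1, Col1a2, Col3a1 and Lum) and 0 fell. Col1a1, a collagen chain, was 8.93-fold higher (adjusted p = 0.000113). Cyp17a1, at 0.05 ± 0.57 (SE; adjusted p = 0.948), and Dcn, at 0.69 ± 0.36 (adjusted p = 0.112), did not pass the test. All 3 tested erythrocyte genes (8 listed) and all 3 tested leukocyte genes (12 listed) rose as well. The summed erythrocyte level ran from 11.33 to 13.07 in control and from 12.93 to 13.43 in hCG rats, and the leukocyte level from 8.57 to 8.96 and from 9.36 to 10.41. Alas2 and Slc4a1 of the erythrocyte list were detected on no array. Their part in the changes of the 6 members was not tested.

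Akr1a1, the aldehyde reductase that also acts on glucuronate, was bright and differed little. Its signals ran from 3215.1 to 4784.6 in control (median 4712.0), from 4100.9 to 5863.8 in GnRH (median 4965.2), from 4039.3 to 5984.4 in GnRH+eCG (median 4717.9) and from 4747.5 to 6061.4 in hCG rats (median 5411.45). Normalised means rose in small steps from 12.01 ± 0.15 in control through 12.20 ± 0.20 and 12.28 ± 0.16 to 12.35 ± 0.11 after hCG, and neighbours in that order overlapped and did not pass the test. The full sequence gave 0.34 ± 0.10 (SE; 1.26-fold, adjusted p = 0.00808), with no overlap between hCG and control rats after normalisation. The call was lost with no normalisation (0.29, adjusted p = 0.0753), within rats 1 to 12 (0.44, adjusted p = 0.0684) and within rats 13 to 24 (0.24, adjusted p = 0.243).

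Akr1c19, a chromosome 17 member next to Akr1c12, went the other way. Its signals ran from 297.9 to 1034.1 in control (median 415.8), from 226.1 to 480.7 in GnRH (median 341.95), from 165.6 to 442.5 in GnRH+eCG (median 323.85) and from 181.5 to 285.8 in hCG rats (median 211.25). Detection went from 5 of 6 rats in each of the first 2 groups to 3 of 6 in GnRH+eCG and 1 of 6 after hCG. The fall from 8.14 ± 0.93 in control to 6.94 ± 0.22 was -1.20 ± 0.35 (SE; adjusted p = 0.00641); the ranges met, since the highest hCG rat was at 7.36 and the lowest control rat at 7.33. No single step passed: the differences were -0.58 ± 0.35, -0.20 ± 0.35 and -0.41 ± 0.35 in turn. Within rats 1 to 12 the difference from control was -1.23 (adjusted p = 0.0568) and within rats 13 to 24 it was -1.17 (adjusted p = 0.114). The summed oocyte markers (8 of 16 genes tested), all 8 of which fell against control, ran from 12.07 to 13.74 in control and from 10.95 to 11.64 in hCG rats. The part of oocyte RNA in the fall of Akr1c19 was not tested.

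**Figure D3:**
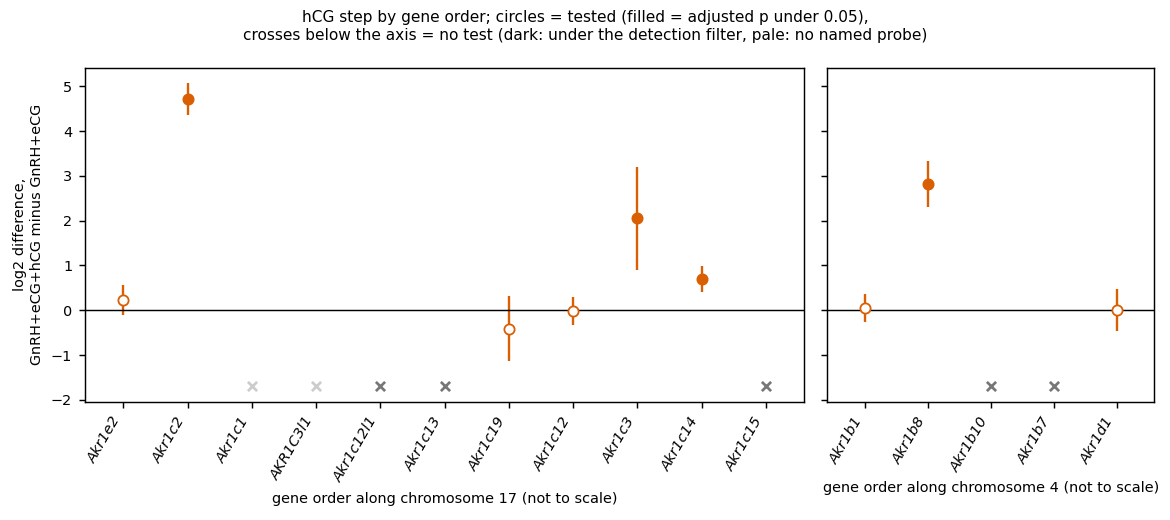
Log2 difference of GnRH+eCG+hCG minus GnRH+eCG with its 95% confidence interval (y axis) for the Akr genes in their order along chromosomes 17 and 4 (x axis, not to scale); filled circles passed the test and crosses mark genes with no test. Akr1c2, at 4.72, lies next to Akr1e2, at 0.23, and Akr1c3, at 2.05, next to Akr1c12, at -0.02.

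The remaining tested members gave no call in any of the 6 comparisons. Akr1c12 was among the brightest probes of every array, ranked between 1 and 9 of 22226 by signal, with signals from 16048.2 to 31225.2. Quantile normalisation gives such a probe the value of its rank, so its normalised levels take a few repeated values and its differences, from -0.02 ± 0.15 at the hCG step to 0.13 ± 0.15 for GnRH+eCG against control, cannot be resolved finely. With no normalisation these 2 differences were -0.03 and -0.12. The other Akr1c12 probe was detected on no array, so the gene's 2 probes disagree.

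Akr1b1, aldose reductase, which turns glucose into sorbitol, was detected on all 24 arrays, with signals from 3723.0 to 8838.7. Its means were 12.74 ± 0.19 in control, 12.44 ± 0.44 in GnRH, 12.64 ± 0.08 in GnRH+eCG and 12.69 ± 0.17 after hCG. The 2 lowest values of the GnRH group were those of rats 5 and 16, at 11.73 and 12.06. Akr1e2, which reduces anhydrofructose in the mouse, had means between 8.99 ± 0.35 in GnRH+eCG and 9.23 ± 0.09 after hCG. That difference was 0.23 ± 0.16 (95% interval -0.10 to 0.57; adjusted p = 0.263). The difference of hCG from control for Akr1e2, 0.17 ± 0.16 (adjusted p = 0.398), passed under at least 1 alternative processing or set of rats (lowest adjusted p = 0.0244). These members' groups overlapped at every step.

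Akr1d1, the steroid 5-beta-reductase, was low and detected on all 24 arrays. Its means were 8.34 ± 0.60 in control, 8.21 ± 0.33 in GnRH, 7.94 ± 0.27 in GnRH+eCG and 7.94 ± 0.38 after hCG. The difference of hCG from control was -0.40 ± 0.23 (95% interval -0.87 to 0.07; adjusted p = 0.149). It passed the test by median scaling (-0.39, adjusted p = 0.0407), with no normalisation (-0.56, adjusted p = 0.000411) and without control rat 1 (-0.57, adjusted p = 0.0315).

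**Figure D4:**
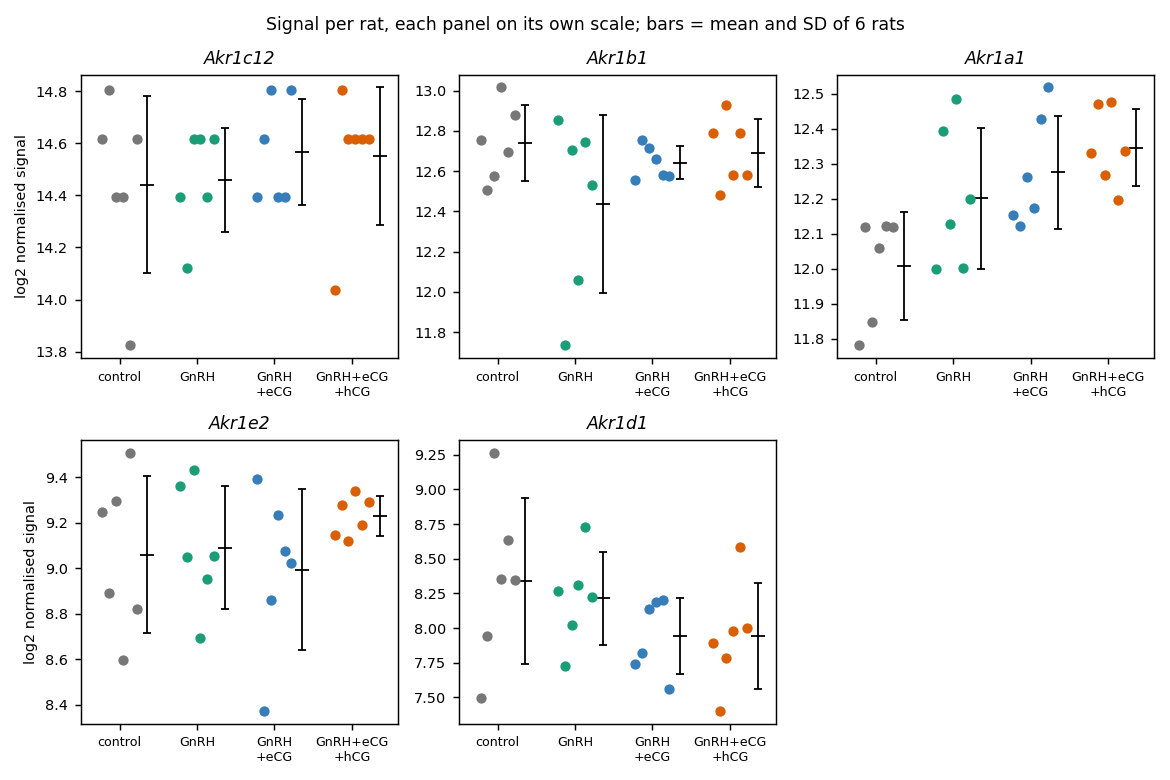
Log2 normalised signal (y axis, each panel on its own scale) of 5 members by hormone group (x axis); points are rats and black bars the mean and SD of 6 rats. The groups overlap in each panel except hCG against control for Akr1a1, and Akr1c12 falls on a few repeated values.

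The 7 probes that were not tested lay near background. Those of Akr1b10, Akr1b7 (named for a vas deferens protein in the mouse), Akr1c13, Akr7a3 (an aflatoxin aldehyde reductase) and the second Akr1c12 probe were detected on none of the 24 arrays. Akr1c15 was detected on 3 arrays, 2 of them control and 1 GnRH, with signals from 124.2 to 324.6. Akr1c12l1, joined to its scores by its signals, had a score over 0.99 on 5 arrays, 3 control, 1 GnRH and 1 hCG. Its signals ran from 131.2 to 224.0. In control rat 1 a signal of 224.0 scored 0.993 for Akr1c12l1 and 0.959 for the second Akr1c12 probe. The scores of Akr1c12l1 are thus not on the scale of the other members, and its 5 arrays are not detections in the same sense. For these probes only the statement that they were not well above background can be made.

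Rats of the same group did not raise or lower the family as a unit. Over the 55 pairs of the 11 tested members, the correlation of log2 levels after each group's mean was taken off had a median of 0.02 over the 24 arrays, and ran from -0.72 for Akr1c2 with Akr1b1 to 0.74 for Akr1c3 with Akr1a1. Akr1c2 and Akr1c3 had 0.60. Akr1c2 was not detected on 17 arrays, and GnRH rat 5 held 68.5% of its within-group sum of squares, so its correlations after group means were taken off rest largely on that array. Pairs share arrays and rats 5 and 16, so these are descriptions.

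For members past the test in any comparison, the most similar of 5504 other named genes were found by Pearson's r over the 24 arrays. Akr1c2 was most like Ptprn (0.99), which encodes a protein of secretory granules, Cxcl10 (0.99), a chemokine, and Mfap3l (0.98). Akr1b8 was most like Pgr (0.97), the progesterone receptor, Sult1b1 (0.96), a sulfotransferase, and Ptgs2 (0.96), the inducible prostaglandin synthase. In both genes the hCG group lies apart from the rest. With group means taken off, r with Akr1c2 was 0.77 for Ptprn, 0.70 for Cxcl10 and 0.49 for Mfap3l, and r with Akr1b8 was 0.53 for Pgr, 0.33 for Sult1b1 and 0.38 for Ptgs2. Akr1c3 was most like Slc3a2 (0.87), an amino acid transporter subunit, Utp11 (0.86) and Fkbp1a (0.86), and Akr1c14 was most like Aplp2 (0.89), Metap2 (0.89) and Git1 (0.85). Akr7a2 was most like Tle5 (0.87), Slc37a4 (0.87) and Creb3 (0.86), Akr1c19 like Smpdl3a (0.79), Slc40a1 (0.77) and Ankmy2 (0.73), and Akr1a1 like Atp6v1e1 (0.90), Mob4 (0.90) and Med10 (0.88).

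After the group means were taken off, the closest genes changed for several members. For Akr1c2 the r values were 0.88 with Aadat, 0.83 with Giot1 and 0.81 with Filip1, with the same limit. Akr1c3 followed Utp11 (0.82), Hacd3 (0.77) and Sars1 (0.77). Akr1b8 followed Or10ak13 (0.81), Zc3h7a (0.81) and Gnmt (0.81), and Akr1c14 followed Sspn (0.87), Bche (0.83) and Itm2b (0.82). Akr7a2 followed Tango2 (0.85), Apobec3 (0.85) and Zfp672 (0.85), Akr1a1 followed Med10 (0.86), Sorbs2 (0.85) and Mpv17l2 (0.85), and Akr1c19 followed Maoa (0.79), Lpar4 (0.77) and Slc40a1 (0.76).

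Other enzymes of the same routes were counted at the hCG step, where 17.8% of all tested probes rose and 22% fell. Of 16 tested genes of progesterone and steroid metabolism (27 listed), 3 rose and 3 fell, with a median log2 difference of 0.01. Fdx1, the electron carrier of the side-chain cleavage enzyme, went from 13.07 ± 0.40 to 14.18 ± 0.26 (1.11 ± 0.23 SE, adjusted p = 0.00056), and Star, which carries cholesterol into mitochondria, from 9.45 ± 0.61 to 11.38 ± 0.19 (1.93 ± 0.51, adjusted p = 0.0047). Hsd17b11, a 17-beta-hydroxysteroid dehydrogenase, went from 12.06 ± 0.11 to 11.55 ± 0.09 (-0.51 ± 0.08, adjusted p = 4.7e-05). Cyp11a1, the side-chain cleavage enzyme itself, differed by -0.01 ± 0.23 (adjusted p = 0.97) and did not pass the test; it was named after its value was seen. The luteal marker list, which shares Star and other genes with this one, had 5 of 9 tested genes (12 listed) higher and 0 lower. Its summed level ran from 13.99 to 15.17 in GnRH+eCG and from 14.88 to 15.25 in hCG rats, Sfrp4 was detected on no array, and its part in the Akr1c3 rise was not tested.

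Of 11 tested genes of prostaglandin synthesis and breakdown (20 listed), 5 rose and 2 fell, against 17.8% and 22% of all probes, with a median of 1.01. Ptgs2 went from 7.64 ± 1.01 to 12.80 ± 0.65 (5.15 ± 0.33, adjusted p = 3.3e-11), Pla2g4a, which frees arachidonic acid, from 8.55 ± 0.45 to 11.60 ± 0.29 (3.05 ± 0.18, adjusted p = 1.3e-11), and Ptgis, the prostacyclin synthase, from 9.79 ± 0.43 to 8.43 ± 0.59 (-1.36 ± 0.25, adjusted p = 0.00021). Of 12 tested other carbonyl and aldehyde enzymes (28 listed), 4 rose and 4 fell, against the same background, with a median of -0.03. Rdh10, a retinol dehydrogenase, differed by 0.89 ± 0.13 (adjusted p = 9.3e-06) and Cbr1, a carbonyl reductase, by 1.87 ± 0.44 (adjusted p = 0.0019). Cbr4, from 7.33 ± 0.33 to 6.69 ± 0.14 (adjusted p = 0.0012), was not detected in any hCG rat. Set against the detection floor it was 1.54-fold lower, with the same limit as for Akr1c2. Rises and falls were equal in number among these enzymes.

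Of 21 tested Nrf2 response genes (29 listed), which answer to oxidants and electrophiles and among which several Akr genes are often counted, 5 rose and 2 fell, against 17.8% and 22% of all probes, with a median of -0.05. Slc7a11, the cystine transporter, differed by 1.18 ± 0.19 (adjusted p = 3.5e-05), Gsta5, a glutathione transferase, by 3.46 ± 0.55 (adjusted p = 4.1e-05) and Gclm, a subunit of the enzyme that starts glutathione synthesis, by 0.92 ± 0.19 (adjusted p = 0.00058). Nqo1, at -0.17 ± 0.21 (adjusted p = 0.56), did not pass the test; it was named after its value was seen. Of 8 tested genes of the glucuronate, myo-inositol and polyol route (12 listed, Akr1a1 and Akr1b1 among them), 2 rose and 3 fell, against the same background, with a median of -0.15. Xylb, xylulokinase, differed by -0.77 ± 0.15 (adjusted p = 0.00025), Ugdh, which makes UDP-glucuronate, by 1.09 ± 0.25 (adjusted p = 0.0015) and Sord, sorbitol dehydrogenase, by 0.88 ± 0.24 (adjusted p = 0.0049). Kcnab1, 1 of 3 potassium channel subunits of the aldo-keto reductase fold and the only one tested, differed by -0.43 ± 0.18 (adjusted p = 0.061). The matching median over all tested probes was -0.04 for each of these lists.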

How the data were processed

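Signals came from 24 one-colour Illumina bead arrays, 6 rats in each of 4 groups taken from the sample titles. The deposited value table holds intensity values that differ from the deposited non-normalised signals only in rounding; the authors used BeadStudio, per the submitters' processing notes, and no further steps are given in the sources used here. The deposited detection score is a fraction from 0 to 1; the file header calls it a p-value, but it rises with signal on all 24 arrays and was read as 1 minus the detection p. Of 22226 probes, 21946 were joined to their scores by ID and 280, Akr1c12l1 among them, by their signals. The scores of Akr1c12l1 were higher than those of a probe joined by ID at the same signal. Whether this holds for the others joined by signals was not tested.

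Values were background-corrected, quantile-normalised and put on the log2 scale with limma's neqc (limma 3.58.1, R 4.3.3, offset 16). Probes with detection p under 0.01 on at least 6 arrays were fitted with 1 mean per group over all 24 arrays (20 residual degrees of freedom), and p-values were adjusted by Benjamini-Hochberg over 8082 probes in each of 6 comparisons. The fit was run on simulated probes with independent noise, equal spread in all groups and few changed probes. That setting lacks arrays that stand apart, unequal group spreads and the many changed probes of the hCG step. It therefore does not test the fit under them. The number of arrays limits precision. Other genes are shown by their brightest tested probe; from each list the 3 tested genes with the smallest adjusted p at the hCG step are named. Symbols came from the platform annotation, which gave 13599 probes 1 symbol and 8627 none. The members and lists were chosen with earlier results of these data known. Alternatives covered scaling, background, filters, variance, array weights, rat-number sets and arrays left out.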

Additional observations from a re-analysis of the deposited data

Results flagged for a closer look

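A rat was taken as far from its group where the gap to the nearest other rat exceeded Dixon's critical share of the group's range; over 44 groups of 6 rats (11 members, 4 groups), 2 did, and chance alone gives about 1 in 20. Akr1c2 in GnRH rat 5 was at 7.90 on the log2 scale, while the other 5 GnRH rats lay between 6.35 and 6.69; its signal was 422.7, and it was the 1 detected GnRH array. Akr1c12 in hCG rat 10 was at 14.04, while the others lay between 14.62 and 14.81. Its signal was 18376.9, and those of the other hCG rats ran from 21497.3 to 24674.1. The rule used normalised levels, which for this probe are set by rank and repeat among the other hCG rats. This flag is thus limited by the normalisation. By limma's interaction test of rats 1 to 12 against rats 13 to 24, 0 of 11 members and 0 of 8082 probes passed in each of the 6 comparisons (0 of 11 members in each at an unadjusted p under 0.05). With 3 rats of a group in each set this does not show that the sets respond alike: the GnRH step of Akr1c3 was 3.37 in the first and 1.28 in the second (unadjusted p = 0.0727).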

How the results depend on the processing

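No paired analysis was possible because rat numbers run from 1 to 24 and no number is shared between groups. Of 66 member differences (11 members, 6 comparisons), 15 passed the test; 7 of these kept their call under every alternative that gave a value, 8 lost it under at least 1, and 0 reversed. Of the other 51, 8 passed under at least 1 alternative and 27 changed sign under at least 1; no difference was called under an alternative that turned its sign. For GnRH+eCG+hCG against GnRH+eCG, the 5 members past the threshold became 2 within rats 1 to 12 and 3 within rats 13 to 24, where each group has 3 rats. Against control the 6 became 3 and 3, and against GnRH the 4 became 2 within rats 1 to 12, and 7 with array weights. For GnRH+eCG against control the count of 0 became 1 with array weights (Akr1b8, 0.65, adjusted p = 0.0482). Akr1c2 has no value where detection on at least 12 arrays is required. With no normalisation the median of all tested probes moved to -0.16 at the hCG step, -0.26 against control and -0.20 against GnRH, from -0.04 in each. By median scaling, the share of all calls that were higher was 35.3% against control and 32.3% against GnRH, instead of 47% and 46%. Signals near background limit Akr7a2, Akr1c19 and the 7 untested probes.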
